A study of Mus musculus with 2 samples.

Results

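Prkacb encodes a catalytic subunit of protein kinase A. Its transcript carried one of the longest runs of anti-Rbfox1 clusters in this experiment when clusters within 1000 nt were joined. Joined within 500 nt, the run broke into shorter pieces. Its reads were chosen by position: all deposited reads lying wholly on the minus strand of chromosome 3 between 146390500 and 146477000 (chr3:146390500-146477000, mm9), an interval of 86501 nt. The gene was singled out because of its many clusters in the anti-Rbfox1 library, so its counts in that library are descriptions and no test was made of them. Of the 10134 clusters in the anti-Rbfox1 library, 12 lay in the interval, with 274 of its 64820 reads. None of the 569 anti-Flag reads fell there (0 reads).

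The study had 2 iCLIP libraries, 1 per antibody, both from mouse forebrain neurons cultured for 14 days in vitro, crosslinked with 254 nm ultraviolet light at 500 mJ/cm2 and lysed in part with 0.1% Triton X-100 to obtain cytoplasmic material. One was precipitated with anti-Rbfox1 antibodies and the other with anti-Flag antibodies as the control. The labels name no strain, genotype, transgene or pooling of cultures. In iCLIP, the base just upstream of a read's 5′ end marks where the protein was crosslinked, and each deposited read gives 1 such position. There were no replicates, and the intervals below cover counting error only. The identity of the cells and the level of Prkacb mRNA were not analysed here, so reads on the transcript cannot be separated from its abundance.

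Protein kinase A is the main target of the messenger cyclic AMP. Its catalytic subunits are held inactive by regulatory subunits, which release them when cyclic AMP binds, and the freed kinase phosphorylates channels, receptors and transcription factors. Prkacb is the catalytic isoform known for high expression in brain, and protein kinase A signalling is well known for its part in synaptic plasticity. Rbfox1 is a neuronal RNA-binding protein that recognises the RNA letters GCAUG, most strongly after a U, and is known both as a splicing regulator in the nucleus and as a protein that binds 3′ untranslated regions (UTRs) in the cytoplasm.

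To show what an Rbfox recognition sequence looks like in this transcript, a Prkacb 3′ UTR was searched for GCATG, the DNA spelling of that motif. The transcript used was Prkacb-202, from the basic GENCODE M21 annotation of GRCm38. Prkacb-202 has the longest 3′ UTR among the 4 protein-coding Prkacb transcripts with a complete end in that basic annotation. Its 3′ UTR has 3014 nt and held 4 matches on the transcribed strand, printed here 5′ to 3′ with 12 bases on each side and the match in capitals. All lie on the minus strand, at chr3:146732079-146732107, chr3:146731909-146731937, chr3:146730945-146730973 and chr3:146730917-146730945 of GRCm38, in that order.
Match 1: aatgtcttgtcaGCATGggaatttgcata
Match 2: gataagtgagggGCATGgctcctcgccgc
Match 3: ctccacctatctGCATGtgttttggttgt
Match 4: tcaagtgtttctGCATGgcaatgtcccac
Matches 3 and 4 are preceded by T and so contain TGCATG, the longer form of the motif. They begin 1627 and 1655 bases after the stop codon, while matches 1 and 2 begin at 493 and 663. The reverse complement, CATGC, also occurred 4 times. The same basic annotation had 2751 other protein-coding genes with a 3′ UTR of at least 3014 nt. Of these, 94.1% held GCATG at least once in their first 3014 bases and 35.5% held it at least 4 times, with a median of 3. A count of 4 is therefore common for a UTR of this length. The reads are placed on mm9 and these matches on GRCm38, so the matches were not set against the crosslink positions, and no match is called a binding site.

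The first comparison asked how much of each library came from Prkacb. The gene held 0.423% of the anti-Rbfox1 reads (95% interval 0.374 to 0.476) at 150 distinct crosslink positions. It made up 22.4% of the 1225 anti-Rbfox1 reads on the minus strand of chromosome 3. The control held 0 reads there, which by the limit of 3 counts allows up to 0.527% of its 569 reads. That limit lies above the anti-Rbfox1 share, so a difference in share was not detectable at this depth. At an equal share, 2.41 control reads would have fallen in the interval. No cluster had under 2 crosslink positions, so lone reads may be missing from the deposited files. Whether a filter was applied is not stated, and the 0 is a count of deposited reads only. On all of chromosome 3 the control had 30 reads, 14 of them on the minus strand, and the nearest lay 4976 kb from the Prkacb clusters. Across the anti-Rbfox1 library 0.572% of clusters overlapped a control read, and 0.622% did so in block 4 of the file lines, a part of the file explained below. Among the Prkacb clusters the number was 0 of 12.

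No antisense signal was seen in the deposited reads, as both libraries had 0 of them on the plus strand of the interval. Along the gene the reads were unevenly placed. Of the 274 anti-Rbfox1 reads, 272 (99.3%) lay in 1 stretch of 3034 nt at the downstream end of the interval, chr3:146392583-146395616, which is 3.51% of its length. A stretch here is a run of clusters with no more than 1000 nt between neighbours, and a cluster is a run of crosslink positions with no more than 20 nt between neighbours. Cluster ends, widths and gaps are given by the outer bases of the reads. A crosslink can therefore lie 1 base outside its cluster, and a gap can be under 20 nt. The other 2 reads formed a cluster at 146401931 to 146401963, 6314 nt upstream of the stretch. The nearest cluster outside the interval on the same strand was 2038557 nt away on the downstream side and 5451875 nt away on the upstream side. The stretch thus stood alone. For scale, the 3′ UTRs of the Prkacb transcripts counted above measure 2721 to 3014 nt in GRCm38, against 3034 nt for the stretch. Whether the stretch lies in the 3′ UTR was not analysed here.

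The stretch held 11 clusters, numbered here from 1 at the upstream (5′) end to 11 at the downstream (3′) end. Together they covered 726 of its 3034 nt. Only 7 of 7297 anti-Rbfox1 stretches (0.0959%), this one included, had 11 clusters or more. Since the gene was chosen for that count, nothing is read from it.

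**Figure D1:**
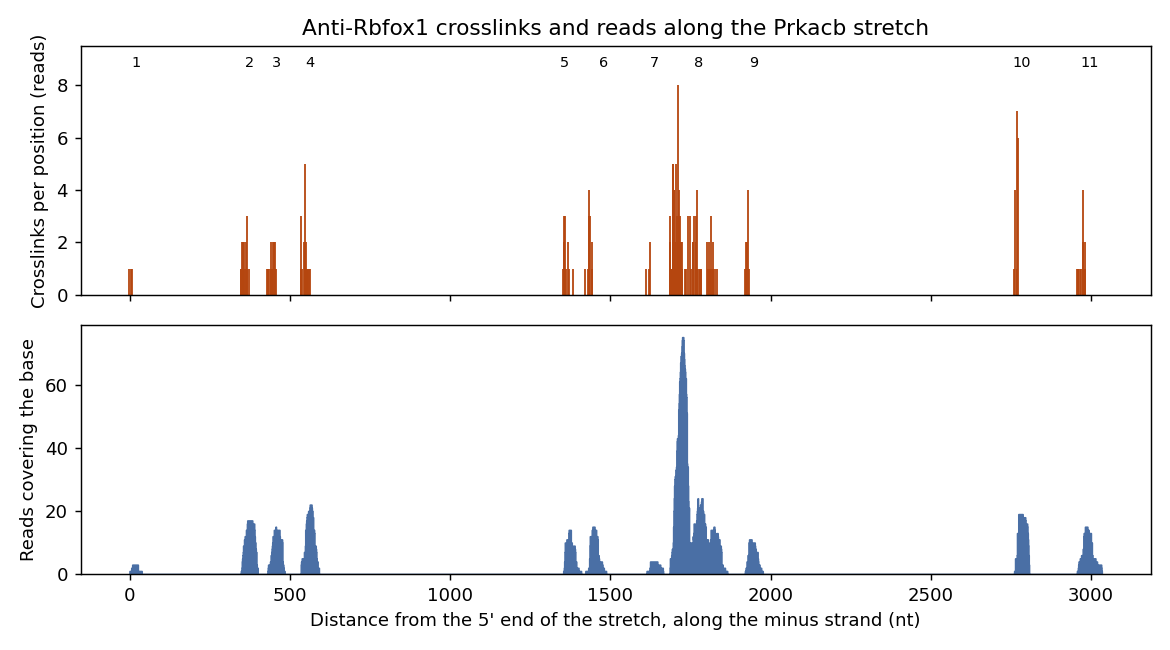
Crosslinks per position (top, reads) and reads covering each base (bottom) along the Prkacb stretch in the anti-Rbfox1 library, by distance in nt from its 5′ end on the minus strand. Numbers mark the 11 clusters. The signal falls in separate groups, with empty gaps of 763 and 785 nt, and cluster 8 rises to 75 reads over a single base.

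The clusters were grouped along the RNA, with a gap over 300 nt taken to end a group. Cluster 1 stood alone at the 5′ end with 3 reads, 310 nt from the next. Clusters 2 to 4 lay within 243 nt and held 59 reads (21.7% of the stretch). After an empty gap of 763 nt, clusters 5 to 9 lay within 622 nt and held 175 reads (64.3%). After another of 785 nt, clusters 10 and 11 lay within 273 nt and held 35 reads (12.9%). Of the 10 gaps between the outer read bases of neighbouring clusters, 7 were shorter than 200 nt and the median was 91.5 nt. The gap of 310 nt that set cluster 1 apart was just over the limit for a group. Of the 175 reads in clusters 5 to 9, 130 were in cluster 8.

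Within the stretch 1 cluster dominated. Cluster 8, chr3:146393752-146393930, held 130 reads, 47.8% of the stretch (95% interval 41.7 to 53.9), at 64 positions. The next was cluster 4 with 23 reads at 14 positions (146395026 to 146395081). Clusters 2 and 10 followed with 19 reads each (146395217 to 146395268 and 146392810 to 146392855), and cluster 3 had 17 (146395133 to 146395185). The remaining 6 clusters of the stretch held between 3 and 16 reads. Apart from cluster 8, the clusters of the stretch had a median of 15.5 reads, against a median of 3 over all clusters of the library.

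Depth of at least 10 reads was reached by 9 of the 12 Prkacb clusters, where 12.3% of all anti-Rbfox1 clusters reached it. At 100 reads or more there was 1, cluster 8, where the library's share was 0.464%. These counts belong to the readout by which the gene was chosen. The deposited lines fall into 11 blocks in the anti-Rbfox1 file, each starting the chromosome order again, whose meaning the sources used here do not state. Clusters 2 to 11 lay in block 4 with 269 reads, cluster 1 in block 9 with 3 reads and the upstream cluster in block 1 with 2. Block 4 is a deep block, where 22.0% of clusters had 10 reads or more, against 1.84% in block 1 and 1.51% in block 9. It was not the only one, as block 6 had 21.3% and block 5, with 7 clusters, had 42.9%. The 2 most upstream clusters, with 2 and 3 reads, were thus the ones from other blocks, while the 4 reads of cluster 7 came from block 4. The part of the block in these depths was not tested.

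**Figure D2:**
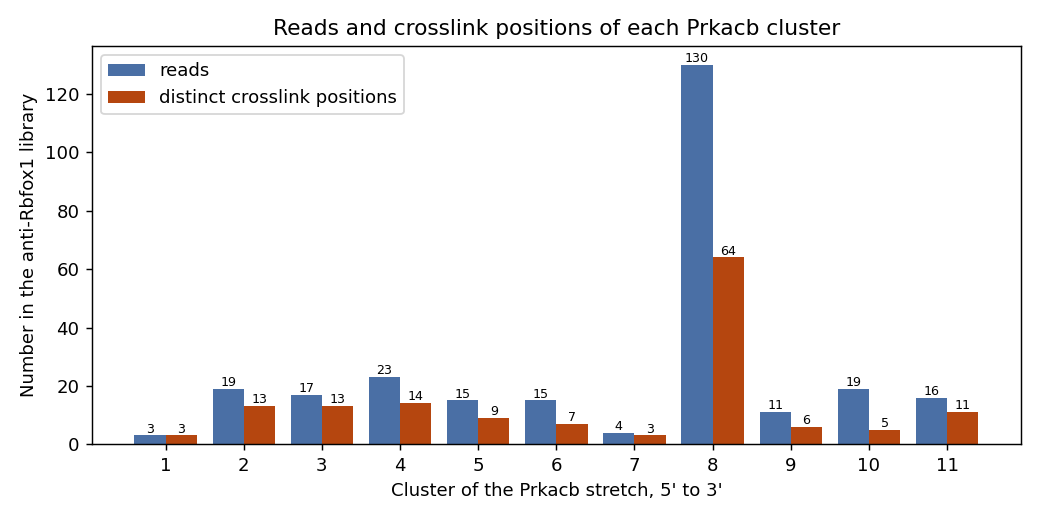
Number of reads (blue bars) and of distinct crosslink positions (orange bars) in each of the 11 clusters of the Prkacb stretch in the anti-Rbfox1 library, ordered 5′ to 3′. Cluster 8 has 130 reads at 64 positions, while no other cluster passes 23 reads or 14 positions.

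Cluster 8 was 179 nt wide by the outer bases of its reads, and 0.326% of all anti-Rbfox1 clusters were at least as wide. It had internal structure. In bins of 10 nt, 3 runs of bins with at least 5 crosslinks each stood out. The first, from 146393892 to 146393931, held 80 of the 130 crosslinks (61.5%) at 33 positions. The second, from 146393842 to 146393861, held 19 and the third, from 146393802 to 146393811, held 10. Cluster 8 thus held more than 1 place of dense crosslinking. When crosslinks had to lie within 10 nt of each other to be joined, the stretch had 13 clusters and its deepest held 112 reads. The first and second runs stayed together in that deepest cluster.

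In cluster 8 the densest 10 nt of 3′ ends held more reads than the densest 10 nt of crosslinks. Of the 130 reads of cluster 8, 53 (40.8%) ended within the 10 nt from 146393870 to 146393879, and 16 ended at the single base 146393878. The densest 10 nt of crosslinks, 146393901 to 146393910, held 30 reads (23.1%). The 53 reads that ended together began at 28 different crosslink positions from 146393892 to 146393926 and were 16 to 50 nt long. Coverage peaked between these places, with 75 reads over the bases from 146393889 to 146393891. Each read runs downstream from its crosslink to its 3′ end, so coverage peaks between crosslinks and ends by construction. Nothing is read from that order.

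**Figure D3:**
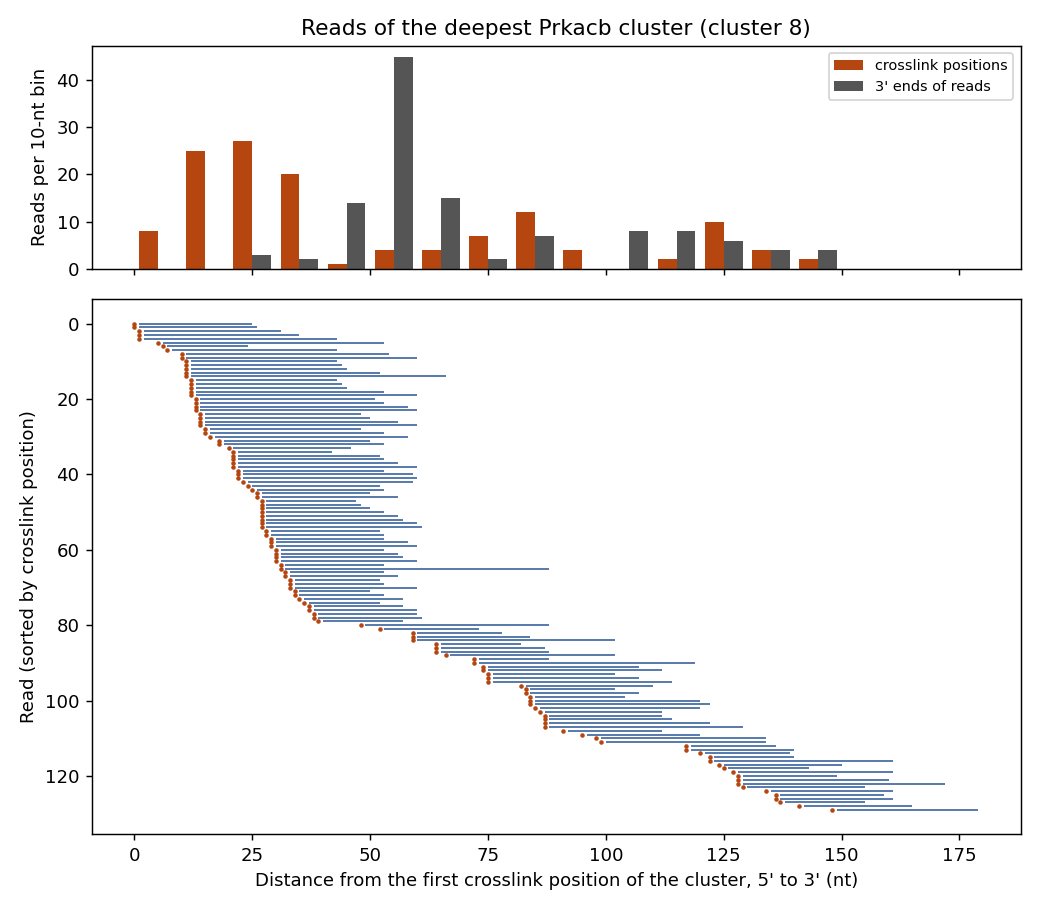
The 130 reads of cluster 8. Top, reads per 10-nt bin by crosslink position (orange) and by 3′ end (grey); bottom, each read as a line from its crosslink (dot) to its 3′ end, sorted by crosslink, by distance in nt from the first crosslink. The highest bin of 3′ ends holds 45 reads and the highest bin of crosslinks 27.

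At the level of single bases, Prkacb positions held more reads each than those of the library. The gene was chosen from this library, so this too is a description. Of the 150 Prkacb positions, 84 (56.0%) held 1 read, 36 held 2, and 7 (4.67%) held 5 or more. In the whole library 79.4% of positions held 1 read and 1.72% held 5 or more. The highest Prkacb position was 146393904 in cluster 8 with 8 reads, where the highest in the library held 26. Next were 146392847 with 7 and 146392843 with 6, both in cluster 10. The 3 highest positions thus lay in clusters of 130 and 19 reads. The stretch had 1.84 reads per position against 1.35 in the library and 1.46 in the other reads of block 4. Among the 187 stretches of at least 5 clusters, compared below, it had rank 13 by reads per position. Positions hold reads of different lengths only, because no 2 deposited reads share start, end and strand, so these ratios do not count molecules.

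Clusters of equal depth could differ in build. Clusters 2 and 10 both had 19 reads, with 11 and 10 different 3′ ends. Cluster 2 spread its reads over 13 crosslink positions, of which the highest, 146395250, held 3. Cluster 10 had 5 positions, and 17 of its reads lay at 3 of them: 6 at 146392843, 7 at 146392847 and 4 at 146392853. The 3′ ends of 16 of its reads fell within the 7 nt from 146392810 to 146392816, at every base of that window. Its 3.8 reads per position were the highest among the Prkacb clusters, where the others lay between 1 and 2.14. Over the 1248 clusters in the library with at least 10 reads the median was 1.43, and 4 of them, cluster 10 included, reached 3.8. When reads with the same crosslink and 3′ ends 1 nt apart were counted as 1, cluster 10 fell from 19 reads to 8, while cluster 2 kept 19 and cluster 8 fell from 130 to 115. When instead reads with the same 3′ end and crosslinks 1 nt apart were counted as 1, cluster 10 kept 19, cluster 2 fell to 17 and cluster 8 to 105.

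**Figure D4:**
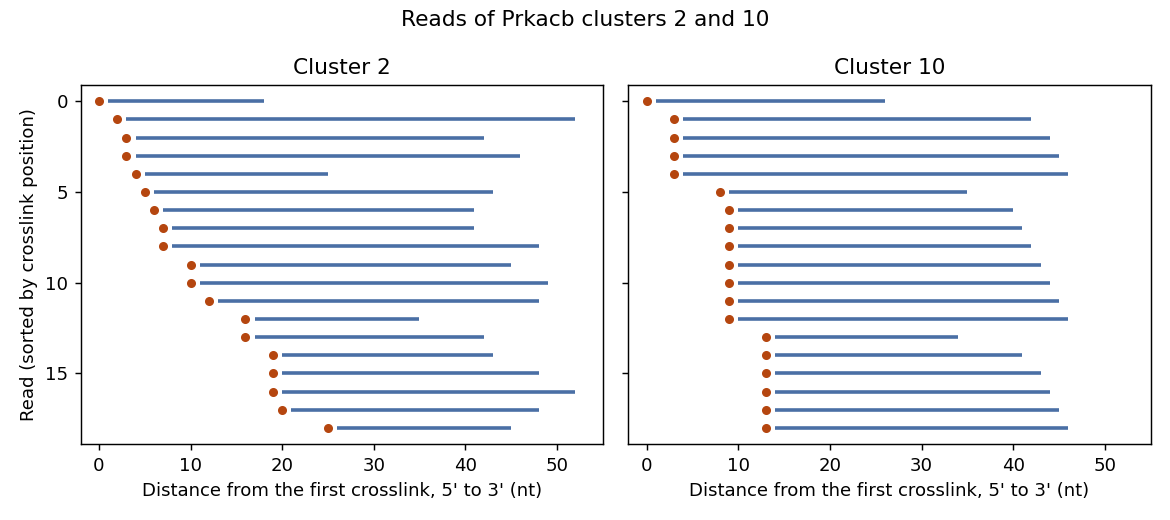
The 19 reads of Prkacb cluster 2 (left) and the 19 of cluster 10 (right), each as a line from its crosslink (dot) to its 3′ end, by distance in nt from the first crosslink of the cluster. Cluster 2 has 13 crosslink positions, and cluster 10 has 5 with a ladder of 3′ ends behind 3 of them.

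Read length was like that of the library. Prkacb stretch reads had a median of 29.5 nt with an interquartile range of 23 to 36 nt, and all anti-Rbfox1 reads a median of 28 nt with a range of 23 to 35. Short reads, under 20 nt, were 10.3% of the stretch (95% interval 6.95 to 14.5) and 9.86% of the library. By cluster, the median length ran from 23 nt in cluster 5 to 35 nt in cluster 7, which held 4 reads. Cluster 8 had a median of 29.5 nt, with reads of 16 to 57 nt.

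The second comparison set the Prkacb stretch beside the other stretches of at least 5 clusters, of which there were 187 in all (2.56% of 7297). The stretch was chosen from this distribution, so the ranks are descriptions. Prkacb shared rank 5 by clusters with 2 others, had rank 4 by span and rank 15 by reads. Its 3034 nt compare with a median of 1170.5 nt in the other 186, and its 272 reads with a median of 73. Over its whole span, which includes the empty gaps of 763 and 785 nt, it had 3.63 clusters per 1000 nt against a median of 5.34 (interquartile range 3.87 to 8.02). The 47.8% of its reads in the deepest cluster compare with a median of 35.5% (interquartile range 27.97 to 42.3). By this share Prkacb had rank 34 of 187, and by clusters per 1000 nt rank 152. Prkacb thus combined a long stretch with a dominant cluster, though higher shares occurred in other stretches.

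**Figure D5:**
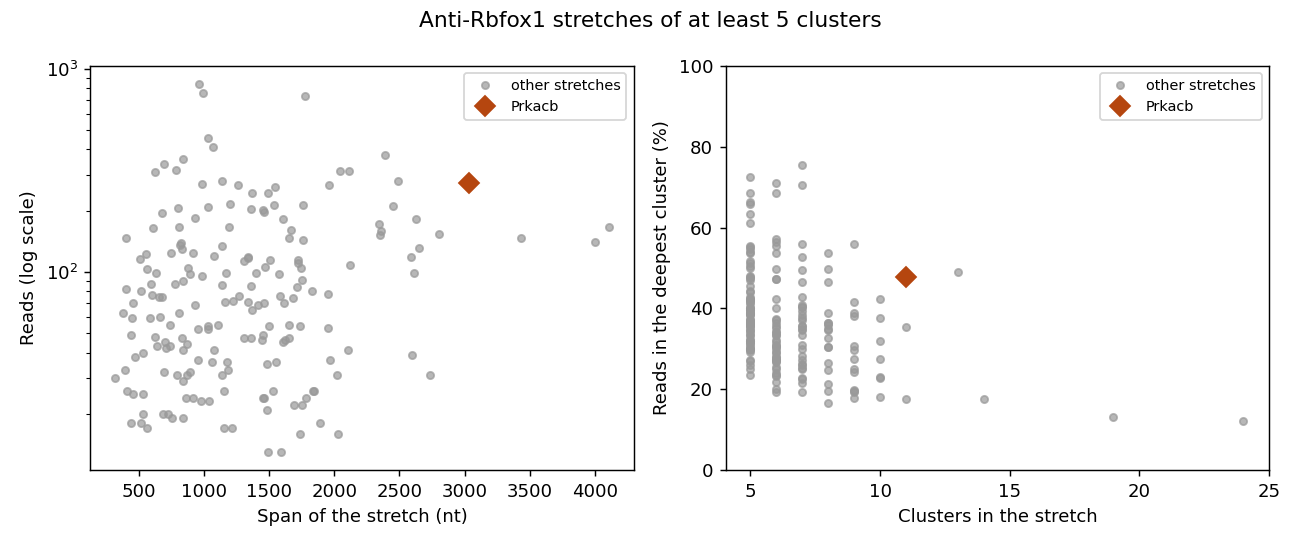
All 187 anti-Rbfox1 stretches of at least 5 clusters, with Prkacb as the orange diamond. Left, reads (log scale) against span in nt; right, percent of reads in the deepest cluster against the number of clusters. Prkacb has a span of 3034 nt, 272 reads, 11 clusters and 47.8% of its reads in 1 cluster.

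The stretches nearest to it in rank by number of clusters showed that many clusters did not go with 1 pattern of depth. The one closest to it in reads was chr13:98020487-98022975 on the plus strand, with 279 reads in 13 clusters, 49.1% of them in the deepest. On the minus strand, chr11:97370782-97374212 held 147 reads in 14 clusters with 17.7% in the deepest, over a similar span of 3431 nt. With 11 clusters each, chr9:75413449-75415098 held 147 reads with 35.4% in the deepest, and chr5:122905949-122907023 held 120 with 17.5%, both on the minus strand. The minus-strand stretch chr6:35459066-35460608 held 261 reads in 10 clusters with 27.6% in the deepest. All are mm9 positions, their genes were not looked up here, and each of these 5 stretches, like Prkacb, held 0 control reads.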

How the data were processed

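Each line of the deposited files is 1 aligned read with its first base, its last base, its strand and another coordinate. Bowtie and the mm9 build are named in the submitters' processing notes, while the sources used here state no version, setting or way of collapsing copies. That other coordinate was 1 base upstream of the read's 5′ end in 64820 of 64820 anti-Rbfox1 and 569 of 569 anti-Flag reads. No cluster had under 2 crosslink positions, and whether a filter was applied is not stated. Prkacb and the ways of counting were chosen with earlier results of these data known, and the motif search and reads counted as 1 by their 3′ ends after seeing the reads.

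Crosslink positions within 20 nt on a strand were joined into clusters, and clusters within 1000 nt into stretches. A cluster overlapped the control where it shared at least 1 base with a control read of its strand. Shares have exact Clopper-Pearson 95% intervals, and a count of 0 was given the limit of 3 counts. Clusters named in full were the 5 with most reads, and the stretches named were the 5 nearest in rank by clusters, then reads. The joining code was run on simulated, narrow and well-separated clusters and recovered all of them. That setting does not try clusters as close together or as wide as those of Prkacb. The other protein kinase A genes planned for an mm9 annotation were not analysed here. Python 3.11.15, numpy 2.4.6, pandas 2.3.3, scipy 1.17.1 and matplotlib 3.10.9 were used.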

Additional observations from a re-analysis of the deposited data

How the results depend on the processing

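Of 27 alternative settings, 8 of them chosen after seeing the data, 19 kept a share within its 95% interval, or a count or gap within 1.5 times, and 8 did not. The Prkacb share of anti-Rbfox1 reads, 0.423%, was 0.313% by distinct crosslink positions and 0.560% within block 4. The number of clusters, 11, was between 10 and 13 under its 6 alternatives, which joined crosslinks within 10 or 50 nt, dropped clusters under 3 reads, counted near-identical reads as 1 in either way or kept block 4 only. The deepest cluster's share, 47.8%, was 41.2% when crosslinks were joined within 10 nt, and the median gap of 91.5 nt became 53.5 nt. The number of stretches with at least as many clusters, 7, was 22 with 10 nt and 4 with 50 nt, and 139 and 15 when clusters were joined into stretches within 500 nt and 2000 nt. Within 500 nt the Prkacb stretch broke at its long gaps, and its largest piece had 5 clusters with 175 reads. That fall from 11 clusters is not among the 6 alternatives of the cluster count. The control held 0 reads under each of its 2 alternatives, either strand and 10 kb around the interval. Neither could give another value, as the nearest control read on chromosome 3 lay 4976 kb from the stretch. Counting either strand could not move the Prkacb share, as no read lay on the plus strand. No paired analysis was possible because there is 1 library for each antibody. The 569 control reads limit every comparison with the control.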

Other observations

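Within 200000 nt on either side of the interval, the anti-Rbfox1 library had 4 clusters with 19 reads, all on the plus strand between 146642692 and 146645466 of chromosome 3 (mm9). They held 8, 5, 3 and 3 reads.

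The tile numbers in the read names, chosen for a look after the reads were seen, differed among the Prkacb clusters. In cluster 10, 10 of 19 reads (52.6%, 95% interval 28.9 to 75.6) came from the first 16 tiles, against 209 of the 253 other reads of the stretch (82.6%) and 81.3% of the library. Cluster 5 had 7 of 15 there and cluster 2 had 18 of 19. No deposited read shares its start, end and strand with another, so these values do not count molecules, and no explanation was tested.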
